A study of Mus musculus with 6 samples.

Results

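The cytosolic heat shock proteins examined here are 10 genes fixed by name: the inducible HSP70 genes Hspa1a and Hspa1b, the constitutive HSP70 gene Hspa8, the HSP70 helpers Hsph1, Bag3 and Dnajb1, the HSP90 genes Hsp90aa1 and Hsp90ab1, the small heat shock protein gene Hspb1, and Hsf1, which encodes their transcription factor. They are 10 of the 24346 gene symbols in a table of liver RNA sequencing, and 10 of 10 were present and passed the filter on low values, among 11493 genes tested. The livers came from male C57BL/6J mice of a NASH (nonalcoholic steatohepatitis) model, 3 in the control group and 3 in the lipophagy group, and lipophagy is the autophagic degradation of lipid droplets. All mice were 8 weeks old when a choline-deficient, amino acid-defined high-fat diet began, ate it for 6 weeks, then received 1 intravenous injection of an adeno-associated virus (AAV8), returned to normal chow and were analysed 2 weeks later. In the lipophagy group the virus carried LDTS-eLIR, a lipid droplet-targeting signal (LDTS) from perilipin 1 fused to an engineered LC3-interacting region (eLIR) that recruits autophagosomes. In the control group it carried LDTS-LIR mut, the same protein with a mutated LC3-interacting region. Both groups therefore share the diet, the virus, the LDTS (itself partly lipogenic according to the study) and an mCherry marker, and in both the liver-specific thyroxine-binding globulin promoter drives the transgene, so no liver without virus stands beside them. The comparison asks what lipophagy adds to the RNA levels of these chaperones in such a liver.

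HSP70 chaperones hold and refold unfolded proteins in a cycle of ATP hydrolysis, J proteins deliver the clients and trigger the hydrolysis, and nucleotide exchange factors reopen the complex. HSP90 receives many clients from HSP70, among them kinases and steroid hormone receptors, and small heat shock proteins hold unfolding proteins without ATP. When unfolded proteins occupy the chaperones, HSF1 is released from them, forms trimers, binds repeated GAA units in promoters (heat shock elements) and activates transcription of the inducible members, while HSPA8 and HSP90AB1 are made in unstressed cells as well.

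None of the 10 genes differed between lipophagy and control livers at an adjusted p below 0.05 in limma (a linear model of log2(FPKM + 1) fitted over all tested genes, Benjamini-Hochberg adjustment). Over all tested genes, 3 did, or 0.0261%. At an unadjusted p below 0.05, Hspa8 was the 1 member that was higher in lipophagy livers, where 11.5% of all tested genes were, and 0 members were lower, where 7.97% were. Hspa8 was also the 1 member whose 3 lipophagy livers all lay above the 3 control livers, a pattern of 15.4% of tested genes, and 0 members lay wholly below, against 10.8%. With 10 members, a count of 1 is no more than these shares of the whole table. Of the 10, 6 had a positive log2 change, and the members' median log2 change of 0.12 stood beside 0.02 for all tested genes, of which 54.5% were positive. After quantile normalization, which gives every liver the same distribution, the members' median was 0.027 beside 0.0074, with 7 of 10 positive. All log2 changes are lipophagy minus control on the log2(FPKM + 1) scale, where FPKM is the fragment count scaled to transcript length and library size, and changes of genes near or under 1 FPKM come out too small on it.

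**Figure D1:**
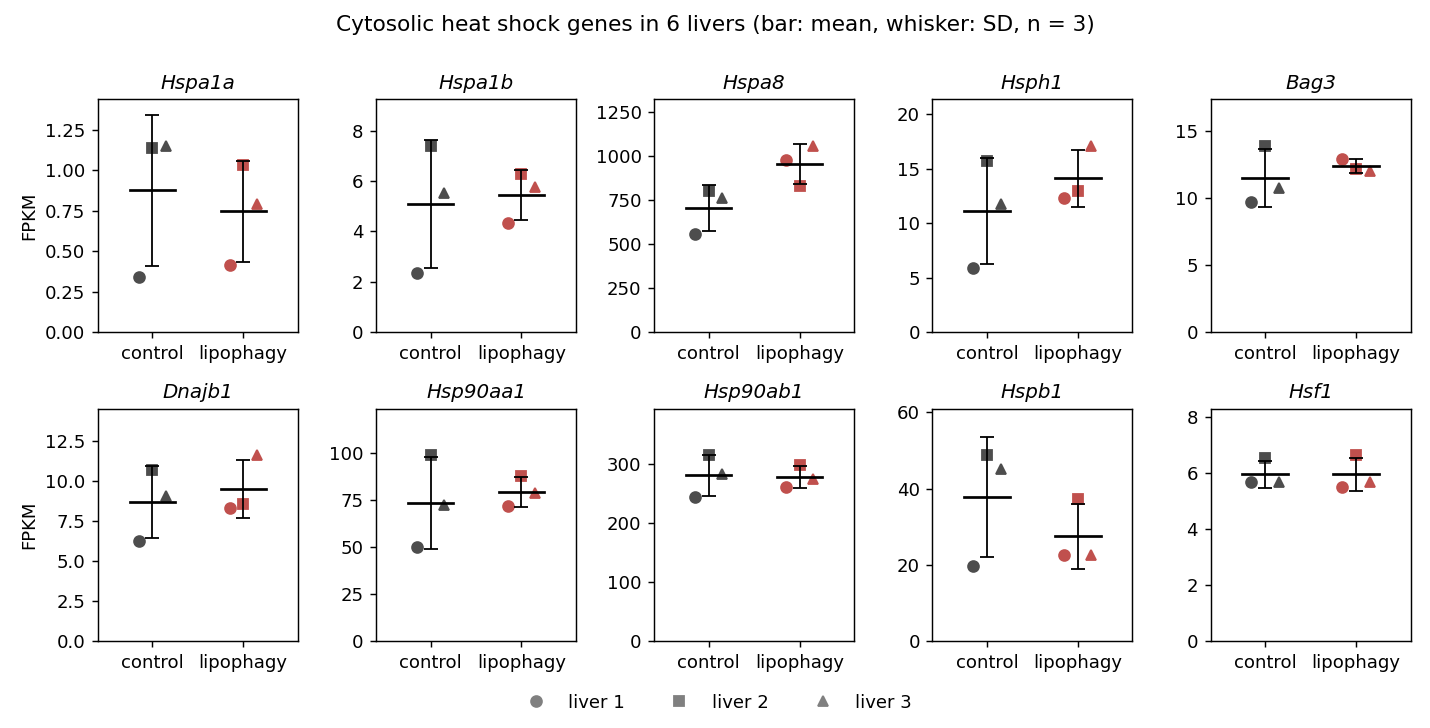
Level of each heat shock gene in FPKM (vertical axes start at 0 and differ between panels) in the 3 control and 3 lipophagy livers; symbols mark the liver number, bars the mean and whiskers the SD. Only the Hspa8 panel shows groups that do not overlap, and control liver 1 is the lowest of the 6 livers in 9 of 10 panels.

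The 6 libraries held an estimated 23800000 to 34100000 fragments in control livers and 22900000 to 24800000 in lipophagy livers, read from the step between low FPKM values. No pair of livers held identical values. The FPKM of all genes summed to 622696 to 681138 in control livers and to 709993 to 782392 in lipophagy livers. Of 8 hepatocyte marker genes, 6 had positive log2 changes (median 0.26, but 0.0096 after quantile normalization), with summed FPKM of 58103 to 64727 in control and 70063 to 92839 in lipophagy livers. Alb made up most of that sum, with 35470 to 39159 FPKM in control and 45009 to 64089 FPKM in lipophagy livers. All 5 bile duct markers had negative log2 changes (median -0.53, and 4 negative after quantile normalization), with sums of 137 to 247 against 92.0 to 196 FPKM. Most of this sum was Spp1, with 131 to 236 FPKM in control and 87.4 to 187 FPKM in lipophagy livers. No marker of either list was at 0 in all livers. The part of these shifts in the values below was not tested, and in whole liver fewer cells of a type and less RNA per cell cannot be told apart. Animals are not named in the labels, so p-values measure the spread between these 6 livers.

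Ordered by mean FPKM over the 6 livers, a scale per transcript length, Hspa8 came first with 829 FPKM, followed by Hsp90ab1 with 280 and Hsp90aa1 with 76.5. These 3 chaperone genes kept their order in 6 of 6 livers with no overlap of ranges. Hspb1 followed with 32.7 FPKM, again without overlap with its neighbours. Hsph1 (12.6), Bag3 (11.9), Dnajb1 (9.10), Hsf1 (5.97) and Hspa1b (5.27) formed a lower tier in which each neighbour overlapped the next. Hspa1a was lowest at 0.810 FPKM, below Hspa1b in 6 of 6 livers. Hspa1b lay below Hsf1 in 4 of 6 livers, so their order was not fixed.

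Hspa8 encodes HSC70, the constitutive cytosolic HSP70, which also delivers proteins to lysosomes in chaperone-mediated autophagy. Its level was 554, 801 and 758 FPKM in control livers 1, 2 and 3 and 974, 829 and 1056 FPKM in lipophagy livers 1, 2 and 3. Every lipophagy liver lay above every control liver, although lipophagy liver 2 was close to control liver 2. The means were 704 ± 132 and 953 ± 115 FPKM (SD, n = 3 each). The log2 change was 0.45 with a standard error of 0.16 and a 95% interval of 0.08 to 0.81. Its unadjusted limma p was 0.0222 and its limma adjusted p 0.204, so Hspa8 did not pass the test. The exact permutation test of 3 livers against 3 gave p = 0.1 (two-sided), the smallest p this design allows. Leaving out control liver 1 gave a log2 change of 0.28 with an unadjusted limma p of 0.0559. This p was also above 0.05 without lipophagy liver 1 (0.0539) or 3 (0.0759). After quantile normalization the log2 change was 0.24 and the groups overlapped. Of the 100-base windows of its transcript, 31.6% also occur in other annotated transcripts, mostly in the pseudogene Gm15459 (28.9%), so part of its signal could be split with copies.

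Because Hspa8 dominates the sum of the members, its share describes the make-up of this set. Hspa8 supplied 61.6, 60.7 and 63.0% of the members' summed FPKM in the control group, and the lipophagy group reached 70.9, 63.7 and 71.1%. The groups did not overlap, and the exact permutation p was 0.1, again the smallest possible. The summed FPKM of the 10 genes was 899, 1319 and 1203 in the control group against 1375, 1301 and 1485 in the lipophagy group, which overlapped (exact permutation p = 0.2).

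Hspa1a and Hspa1b are neighbouring genes on chromosome 17 that encode nearly the same inducible HSP70. Their promoters are shown because they carry the same heat shock motif and differ at few bases. The 120 bases before each transcription start (RefSeq, GRCm38.p6, minus strand) are printed 5′ to 3′ with matches to GAANNTTC, a head-to-head pair of GAA units, in capitals. Hspa1a lies at chr17:34972157-34972276 and Hspa1b at chr17:34959239-34959358:
Hspa1a: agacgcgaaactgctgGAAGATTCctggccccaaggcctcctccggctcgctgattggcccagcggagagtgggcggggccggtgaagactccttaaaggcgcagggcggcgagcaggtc
Hspa1b: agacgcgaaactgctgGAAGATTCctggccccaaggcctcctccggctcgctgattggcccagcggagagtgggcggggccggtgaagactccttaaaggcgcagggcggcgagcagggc
The match starts 104 bases before the start of either gene. The stretches share 119 of 120 bases, and 247 of 250 over the longer RefSeq window upstream.

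Hspa1a measured 0.337, 1.14 and 1.15 FPKM in control livers 1, 2 and 3 and 0.412, 1.03 and 0.789 FPKM in lipophagy livers 1, 2 and 3. Liver 1 of each group was low and the groups overlapped throughout. At this level a library held an estimated 25.5 to 111 fragments of Hspa1a, so counting error is larger here than for any other member. Its log2 change was -0.09 ± 0.21 (SE), with a limma adjusted p of 0.838. It was -0.31 without control liver 1, where the groups no longer overlapped, as for 37.2% of all tested genes in either direction, and it was positive in 3 of the 6 exclusions of a liver.

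Hspa1b measured 2.34, 7.39 and 5.54 FPKM in control livers and 4.34, 6.26 and 5.76 FPKM in lipophagy livers. The control values enclosed all lipophagy values, with control liver 1 lowest and control liver 2 highest. Its log2 change was 0.17 ± 0.30 (SE), with a limma adjusted p of 0.777. The sign turned, to -0.21, when control liver 1 was left out.

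The pair share 47.1% (of Hspa1a) and 49.9% (of Hspa1b) of their 100-base transcript windows, so reads from one can be assigned to the other. Summed, they gave 2.67, 8.53 and 6.69 FPKM in control livers and 4.75, 7.30 and 6.55 FPKM in lipophagy livers. The log2 change of the sum was 0.14 ± 0.32 (SE), with a limma adjusted p of 0.831, and its 95% interval of -0.60 to 0.88 still covers a substantial change in either direction. Over 6 livers Hspa8 was 93.9 to 207 times as abundant per length as the pair together.

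The helpers of HSP70 come next. Hsph1 encodes HSP110, which serves as a nucleotide exchange factor for HSP70, and measured 5.92, 15.7 and 11.8 FPKM in control livers and 12.3, 12.9 and 17.1 FPKM in lipophagy livers. Control liver 1 was the low value and lipophagy liver 3 the high one, and control liver 2 lay within the lipophagy range. The log2 change was 0.40 ± 0.29 (SE), with a limma adjusted p of 0.463. It was 0.04 without control liver 1 and 0.67 without control liver 2, and 0.26 without lipophagy liver 3, so its size depended on these livers.

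Bag3 encodes a co-chaperone that links HSP70 to small heat shock proteins and to selective autophagy. It measured 9.73, 13.9 and 10.8 FPKM in control livers and 12.9, 12.1 and 12.02 FPKM in lipophagy livers. The lipophagy livers sat within the control range and close together, with a standard deviation of 0.5002 against 2.16 FPKM. Its log2 change was 0.11 ± 0.12 (SE), with a limma adjusted p of 0.621. It was 0.014 without control liver 1 and 0.25 without control liver 2, the latter with an unadjusted limma p of 0.0360 and a limma adjusted p of 0.345. Quantile normalization gave 0.044.

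Dnajb1 encodes HSP40, the stress-inducible J protein that stimulates the ATPase of HSP70. It measured 6.26, 10.7 and 9.10 FPKM in control livers and 8.31, 8.60 and 11.6 FPKM in lipophagy livers, and the groups overlapped. Its log2 change was 0.13 ± 0.19 (SE), with a limma adjusted p of 0.717, and turned to -0.06 without control liver 1.

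Hsp90aa1 encodes the inducible HSP90 of the cytosol. It measured 50.0, 98.9 and 72.2 FPKM in control livers and 71.8, 87.7 and 78.7 FPKM in lipophagy livers. Control livers 1 and 2 were the lowest and the highest of the 6. Its log2 change was 0.15 ± 0.22 (SE), with a limma adjusted p of 0.717, and was -0.10 without control liver 1 and 0.010 after quantile normalization. Of its transcript windows 47.5% occur elsewhere, mainly in Gm12346.

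Hsp90ab1 encodes the constitutive HSP90. It measured 245, 315 and 284 FPKM in control livers and 262, 299 and 275 FPKM in lipophagy livers. The lipophagy livers fell inside the control range. The log2 change was -0.0088 ± 0.11 (SE), with a limma adjusted p of 0.972 and a 95% interval of -0.26 to 0.25. After quantile normalization it was -0.19, with an unadjusted limma p of 0.0830 and a limma adjusted p of 0.416. The ratio of Hsp90ab1 to Hsp90aa1 was 4.91, 3.19 and 3.93 in control and 3.66, 3.41 and 3.49 in lipophagy livers, with an exact permutation p of 0.5.

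Hspb1 encodes HSP25, a small heat shock protein of many tissues, which also binds the actin cytoskeleton. Its 120 bases before the transcription start (RefSeq, GRCm38.p6, chr5:135887799-135887918, plus strand) are shown because they hold a pair of GAANNTTC matches, in capitals, starting 117 and 97 bases before the start:
Hspb1: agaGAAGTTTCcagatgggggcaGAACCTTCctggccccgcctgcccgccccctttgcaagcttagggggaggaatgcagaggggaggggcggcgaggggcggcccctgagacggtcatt
Hspb1 measured 19.7, 48.8 and 45.1 FPKM in control livers and 22.7, 37.3 and 22.6 FPKM in lipophagy livers. Control livers 2 and 3 were the highest, while control liver 1 was below every lipophagy liver. The log2 change was -0.38 ± 0.34 (SE), the most negative of the members, with a limma adjusted p of 0.538. The size depended on single livers: leaving out control liver 2 or 3 gave -0.15 or -0.21, leaving out lipophagy liver 1 or 3 gave -0.27, and leaving out lipophagy liver 2 gave -0.62. Without control liver 1 it was -0.79 with a 95% interval of -1.29 to -0.28, an unadjusted limma p of 0.00804 and a limma adjusted p of 0.207. The bile duct markers, all negative as well, had a median of -0.80 without that liver, and their part in the Hspb1 value was not tested. Of its transcript windows 42.7% also occur in the pseudogene Hsp25-ps1.

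Hsf1, whose protein is regulated mostly by trimerization and modification rather than by its RNA level, measured 5.69, 6.54 and 5.70 FPKM in control livers and 5.53, 6.65 and 5.71 FPKM in lipophagy livers. It varied least among the members, by 1.202 times between the highest and the lowest liver. The log2 change was -0.0036 ± 0.09 (SE), with a limma adjusted p of 0.987 and a 95% interval of -0.22 to 0.21. A change in HSF1 protein activity is not measured by this table.

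**Figure D2:**
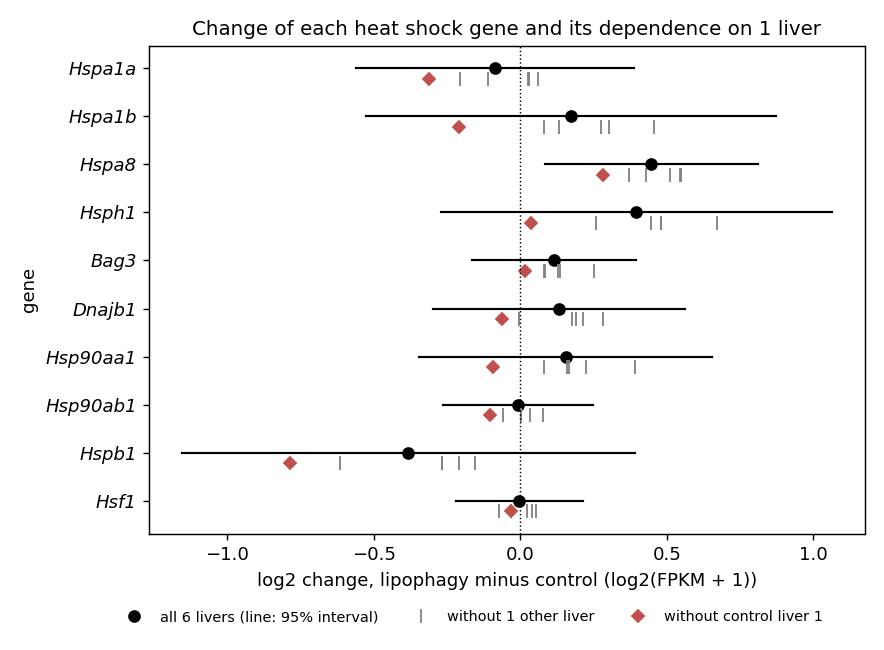
Log2 change of each gene, lipophagy minus control, from all 6 livers (filled circles with 95% intervals), without control liver 1 (diamonds) and without each other liver in turn (ticks). The interval of Hspa8, 0.08 to 0.81, is the 1 interval that does not reach 0, and the diamonds lie left of the circles for all 10 genes.

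The members differed in how widely they varied over the 6 livers. The highest liver exceeded the lowest by 3.41 times for Hspa1a, 3.16 for Hspa1b, 2.89 for Hsph1, 2.47 for Hspb1, 1.98 for Hsp90aa1, 1.91 for Hspa8, 1.86 for Dnajb1, 1.43 for Bag3 and 1.29 for Hsp90ab1. Averaged over the 10 genes, the deviation from each gene's mean on the log2(FPKM + 1) scale came to -0.49, 0.29 and 0.06 for control livers 1, 2 and 3. For lipophagy livers 1, 2 and 3 it came to -0.09, 0.13 and 0.10. The group means of this deviation were -0.05 ± 0.40 and 0.05 ± 0.12 (SD, n = 3 each), so the spread within the control group exceeded the distance between the groups.

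Control liver 1 was the lowest of the 6 livers for 9 members (Hsf1 was the exception, with lipophagy liver 1 lowest), while it was lowest for 24.3% of all tested genes. Control liver 2 was the highest for 5 members and for 11.3% of tested genes. Without control liver 1 the members' median log2 change was -0.08, beside 0.02 for all tested genes, and 3 of 10 members were positive in place of 6. Hspa8, Hsph1 and Bag3 were those 3, and the values of Hspa1b, Dnajb1 and Hsp90aa1 changed sign. The other exclusions left 6 to 9 positive, with 9 of 10 without control liver 2 (median 0.27) and 9 of 10 without lipophagy liver 1 (median 0.15). Without control liver 2, Hspa8, Hsph1 and Bag3 had an unadjusted p below 0.05, where 13.9% of all tested genes did in either direction.

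**Figure D3:**
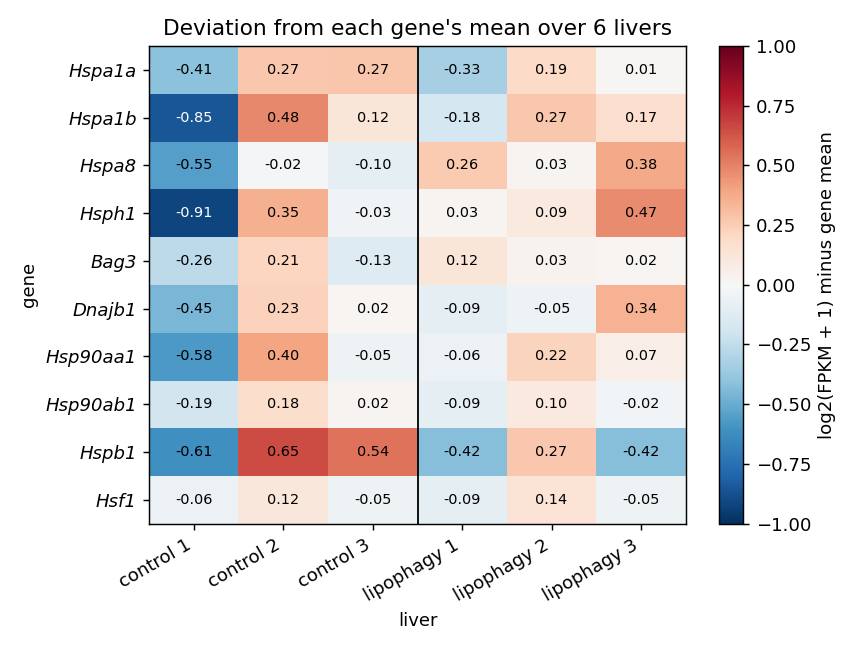
Deviation of each heat shock gene from its own mean over the 6 livers, in log2(FPKM + 1), by liver (columns; the line parts control from lipophagy) and gene (rows), with each value printed in its cell. Control liver 1 is below the mean for 10 of 10 genes, and the largest deviations, of Hsph1 and Hspa1b, are in that liver.

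Among the 45 pairs of members, 44 correlated positively over the 6 livers on the log2 scale, with a median r of 0.69 and 16 pairs above 0.8. Over all pairs of tested genes the median r was 0.00 and 5.08% lay above 0.8. When control liver 1 was left out, 35 pairs were positive with a median of 0.39, 11 lay above 0.8 and the lowest r was -0.95. Over all pairs of tested genes 50.4% were then positive, the median r was 0.0066 and 7.65% lay above 0.8. These correlations share the 6 libraries and their depth and are given as a description.

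The genes most like the members' mean profile were taken from 410 other genes that spanned at least 1 log2 unit over the livers, and Pearson's r over the 6 livers is given as a description. They were Mup2 (r = 0.91), a major urinary protein gene with near-identical copies that can share its reads, Nr0b2 (0.91), which encodes the nuclear receptor SHP, Cyp4a12b (0.90), Cyp17a1 (0.89) and Derl3 (0.89), which acts in degradation of proteins from the endoplasmic reticulum. All 5 were lowest in control liver 1, which is also the lowest liver of the profile they were picked to match, so the choice itself favours this. Without that liver r was 0.88 for Mup2, 0.57 for Nr0b2, 0.91 for Cyp4a12b, 0.59 for Cyp17a1 and 0.80 for Derl3. Without control livers 1 and 2, the 2 farthest from the median of the profile, r was 0.99, 0.39, 0.98, 0.49 and 0.96 in the same order.

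In the wider chaperone network of the cytosol, 66 other genes were tested in 7 lists. None passed the adjusted limma test, 54 had a positive log2 change (54.5% of all tested genes did), and their median was 0.09. An unadjusted p below 0.05 was found for 7 in the positive direction, where 11.5% of all tested genes had one. In the negative direction 1 gene had one, against 7.97%. Of the 66, 45 were positive without control liver 1 (55.1% of all tested genes were), with a median of 0.08. After quantile normalization 37 of 66 were positive with a median of 0.02, where 52.0% of the whole table was positive, and an unadjusted p below 0.05 was left for 1 gene in each direction.

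Among other HSP70 and HSP110 genes, 3 of 5 were positive, led by Hspa4 (log2 change 0.18, limma adjusted p = 0.245), an HSP110 relative of Hsph1, and Hspa4l was the most negative at -0.16. Of 8 nucleotide exchange factors and other HSP70 cochaperones 6 were positive, with Bag1 at 0.21 and Bag2 at -0.02, and 0 had an unadjusted p below 0.05. Of 13 J proteins 11 were positive. Of these, Dnajb6 (0.23) and Dnajc21 (0.22), named after their values were seen, had an unadjusted p below 0.05, against 11.5% of all tested genes. Dnaja1, which like Dnajb1 works with cytosolic HSP70, had the highest value, 0.28, and Dnajc9, a histone chaperone, the lowest, -0.20.

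Of 18 HSP90 cochaperones 16 were positive, and 10 without control liver 1. Fkbp5, a cochaperone of steroid receptors, had the highest log2 change of 0.63 (limma adjusted p = 0.418), which rested on lipophagy liver 3, with 16.5 FPKM against 3.65 to 6.31 FPKM in the other livers, and was 0.10 without it. Tomm34 was the 1 cytosolic chaperone gene with an unadjusted p below 0.05 in the negative direction, with 5.82, 5.39 and 5.19 FPKM in control and 3.86, 4.12 and 4.63 FPKM in lipophagy livers (log2 change -0.32, limma adjusted p = 0.156). Of 5 other genes listed under small heat shock proteins, 1 was positive, Hspb11 at 0.04, which is listed by its symbol. Cryab, which encodes alpha-B crystallin, was lowest at -0.25. Hspb8 measured 79.7 to 105 FPKM, above Hspb1 in every liver.

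All 14 subunits of TRiC, the chaperonin that folds actin and tubulin, and of its partner prefoldin had positive log2 changes. After quantile normalization 7 of the 14 were positive. Cct5, Tcp1 and Cct8 (the latter 2 named after their values were seen) had an unadjusted p below 0.05, against 11.5% of all tested genes in that direction. Cct5 was highest with 79.9, 94.8 and 94.4 FPKM in control and 117, 125 and 99.0 FPKM in lipophagy livers (log2 change 0.34, limma adjusted p = 0.196), and Pfdn1 was lowest at 0.04. With control liver 1 left out, 12 of the 14 were positive and 0 had an unadjusted p below 0.05. Of the other heat shock factors and their regulators 3 were tested, with Hsf4 at 0.25 (limma adjusted p = 0.219) and the HSF-binding protein gene Hsbp1 at 0.04.

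Chaperones of other compartments were set beside the cytosolic genes. Of 17 genes of the endoplasmic reticulum (ER), 16 were positive, and the median log2 change was 0.43. An unadjusted p below 0.05 was found for 14 in the positive and 1 in the negative direction (11.5% and 7.97% of all tested genes). None passed the adjusted test, and the difference between the lists was not tested. Dnajb9, a J protein of the ER, measured 19.3, 27.8 and 22.9 FPKM in control and 52.0, 43.4 and 57.9 FPKM in lipophagy livers (log2 change 1.10, limma adjusted p = 0.0802). Serpinh1, which encodes the collagen chaperone HSP47, was the exception at -0.56 (limma adjusted p = 0.140). Without control liver 1, 16 of the 17 were still positive, with a median of 0.25. After quantile normalization 15 were, with a median of 0.26. There, 9 had an unadjusted p below 0.05 in the positive direction, where 14.3% of all tested genes had one in either direction. Of the 10 cytosolic heat shock genes, 6 were positive with all livers and 7 after quantile normalization. Without control liver 1, the lowest liver for 9 of them, 3 were.

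Of 14 mitochondrial chaperone genes 13 were positive, and the median was 0.21 (0.16 without control liver 1, and 0.06 after quantile normalization, with 10 positive). An unadjusted p below 0.05 was found for 7, all with positive changes, where 11.5% of all tested genes had one. Grpel1, the nucleotide exchange factor of mitochondrial HSP70, was highest at 0.33 (limma adjusted p = 0.147) and its relative Grpel2 lowest at -0.03. The compartments' own HSP70 and HSP90 genes, named after their values were seen, stand beside Hspa8 (0.45) and Hsp90ab1 (-0.01). In the ER, Hspa5 had a log2 change of 0.87 (limma adjusted p = 0.144) and Hsp90b1 0.48 (limma adjusted p = 0.157). In mitochondria, Hspa9 had 0.28 (limma adjusted p = 0.170) and Trap1 0.24 (limma adjusted p = 0.171).

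**Figure D4:**
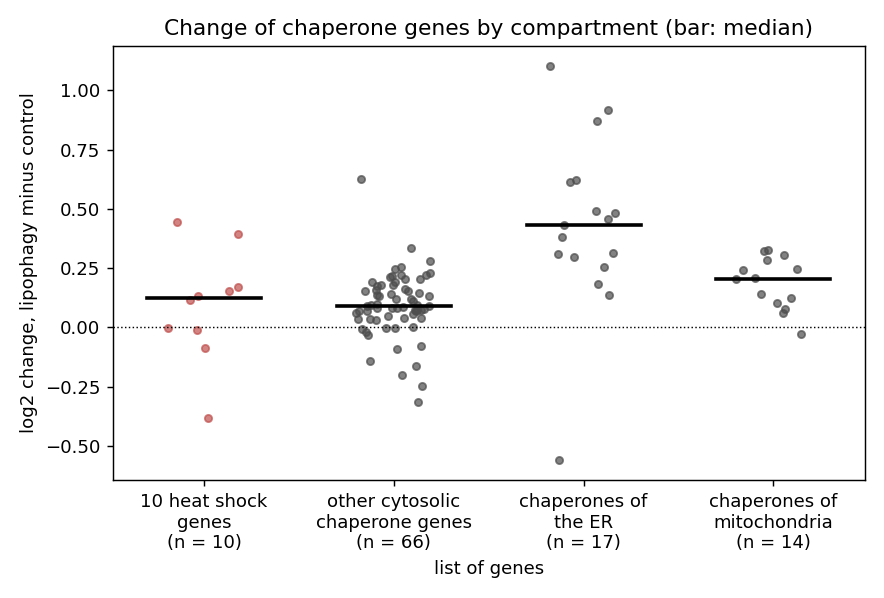
Log2 change, lipophagy minus control, of each tested chaperone gene (points) in 4 lists, with the median as a bar: 0.12 for the 10 heat shock genes, 0.09 for 66 other cytosolic genes, 0.43 for 17 genes of the ER and 0.21 for 14 genes of mitochondria. After quantile normalization, which is not plotted, these medians were 0.027, 0.02, 0.26 and 0.06. Points are spread sideways for legibility, and the lowest ER point is Serpinh1 at -0.56.

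Promoter letters were not used to choose the members. RefSeq windows from 250 bases before to 50 after the transcription start were matched for 6 members (Hspa1a, Hspa1b, Hspb1, Hsph1, Bag3 and Dnajb1), and the other members, Hspa8, Hsp90aa1, Hsp90ab1 and Hsf1, were not examined for them. A head-to-head (GAANNTTC) or tail-to-tail (TTCNNGAA) pair of GAA units, each of which reads the same on both strands, was in the windows of 5 of the 6 members, Dnajb1 being without one. Over all 32851 windows 7.86% held the first and 8.52% the second form, 15.1% held either, and 17.0% of 27025 genes had one in at least 1 window. A run of 3 GAA units in alternating orientation, in which both forms overlap, were in Hsph1 and in 0.603% of all windows. In Bag3 the pair began 43 bases after the start. In Hsph1 the run began 16 or 37 bases after the start, depending on the RefSeq start used, and a further tail-to-tail pair lay 54 or 33 bases before it. The GENCODE gene of Hsph1 reaches beyond both starts, so these bases lie within its annotated extent. A match describes letters in a window and is no evidence of binding. The log2 changes of the 5 members with a match ran from -0.38 for Hspb1 to 0.40 for Hsph1.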

How the data were processed

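Liver poly(A) RNA of 3 control and 3 lipophagy mice was sequenced in pairs. The authors deposited FPKM values per gene symbol and liver, scaled to transcript length and mapped fragments. The submitters' processing notes name TopHat2 2.0.13, Bowtie2 2.2.3, SAMtools 0.1.19 and Cufflinks 2.2.1 with genome build mm10; the annotation is not given in the sources used here. Since FPKM values are not counts, they were not given to a count model.

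The 11493 genes averaging 0.5 FPKM or more were fitted with limma 3.58.1 (trend, two-sided, no covariate) in R 4.3.3 on log2(FPKM + 1), with a threshold of 0.05, after the code was tested on simulated data. Of the symbols, 27 had been turned into dates and 7161 were at 0 in all livers. Depth was estimated from steps in FPKM below 0.08, taking 150 bases off each transcript length. Ratios were compared by exact permutation. Transcript windows of 100 bases came from the GENCODE annotation of GRCm38, promoters from RefSeq (GRCm38.p6). Python 3.11.15, scipy 1.17.1 and matplotlib 3.10.9 were used. Depth limits the precision mainly of genes below 1 FPKM.

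All members were named in full. In each list the highest and the lowest log2 change and any gene with an adjusted p below 0.05 were named, and so were the 5 genes most correlated with the members. The members, the lists and the model were chosen with earlier results of these data known. Alternatives were other pseudocounts, filters and scalings, no intensity trend, a replicate block, the sum of Hspa1a and Hspa1b, and each liver left out.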

Additional observations from a re-analysis of the deposited data

How the results depend on the processing

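No member passed the adjusted limma test under any alternative, with 0.195 (Hspa8) the lowest adjusted p, and Hspa8 stayed positive in all, at an adjusted p of up to 0.466. Leaving out 1 liver at a time, the members' median log2 change ran from -0.08 (without control liver 1) to 0.27 (without control liver 2). The log2 change ran over the same exclusions from -0.062 to 0.28 for Dnajb1, from -0.073 to 0.053 for Hsf1, from -0.10 to 0.39 for Hsp90aa1, from -0.10 to 0.077 for Hsp90ab1, from -0.31 to 0.058 for Hspa1a and from -0.21 to 0.45 for Hspa1b, changing sign. It kept its sign from 0.014 to 0.25 for Bag3, from 0.04 to 0.67 for Hsph1, from 0.28 to 0.55 for Hspa8 and from -0.79 to -0.15 for Hspb1. Hspa1a was also positive after quantile normalization (0.0023) and when summed with Hspa1b (0.14). Of 97 chaperones of the other lists, 30 had an unadjusted p below 0.05 (30.9%, beside 19.5% of all tested genes), and 15 after quantile normalization (15.5% beside 14.3%). Members without overlap between groups numbered 0 after quantile normalization, where 20.4% of all genes did not overlap in either direction, and 1 to 3 of 10 with a liver left out, beside 32.8 to 44.4% of all genes. Over all genes, 1 passed with no filter, 1 to 11 with a liver left out (11 without lipophagy liver 3) and 43 with a replicate block, which called 0 members and 1 chaperone of the other lists (Dnajb9, limma adjusted p = 0.0377). Same-numbered livers correlated in their deviations by 0.25, 0.23 and -0.06. Control livers 1 and 2 correlated best with the lipophagy liver of the same number, and control liver 3 with lipophagy liver 2 (0.25). With 3 livers a group, these values cannot show whether the numbers mark a pairing. The cause of these differences was not tested. The 3 livers a group limit the precision to the intervals given.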

Other observations

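Lists of genes that respond to handling, time of day or hormones were read in the same livers, with 0 genes past the adjusted limma test in each. Of 11 immediate early genes, which respond within minutes to many stimuli, 9 had negative log2 changes (median -0.34). In that direction 6 had an unadjusted p below 0.05, where 7.97% of all tested genes had one. In the other, Zfp36 (0.39, named after its value was seen) had one. The list ran from Egr1 at -1.35 to Dusp1 at 0.41. The Dusp1 value rested on lipophagy liver 3 (29.6 FPKM against 5.81 to 9.24 in the other livers) and was -0.28 without it. Of 9 glucocorticoid-responsive genes, whose receptor is a client of HSP90, 7 were positive (median 0.63, and 0.10 with 7 positive when lipophagy liver 3 was left out), with Tsc22d3 (GILZ) at 1.22 (limma adjusted p = 0.124) and Mt2 at -0.33. Of 13 circadian clock genes 8 were positive (median 0.07, but -0.02 after quantile normalization), from Arntl at -0.26 to Ciart at 1.16, which rested on lipophagy liver 3 (35.5 FPKM against 2.46 to 4.76 in the other livers) and was 0.17 without it. The RNA-binding protein genes induced by mild cold, Rbm3 (0.07) and Cirbp (-0.05), had opposite signs; without control liver 1 both were positive and after quantile normalization both were negative. These genes' part in the heat shock values was not tested.

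Other cell type markers gave these values. Of 7 Kupffer cell and macrophage markers 4 were positive, from Cd68 at -0.38 to Vsig4 at 0.40. Of 6 stellate cell markers 5 were negative, with Col1a1 at -0.75 (limma adjusted p = 0.103) and Lrat at 0.25. Of 5 sinusoidal endothelium markers 4 were positive, from Pecam1 at -0.11 to Clec4g at 0.43. The bile duct markers ran from Spp1 at -0.71 to Sox9 at -0.06, and the hepatocyte markers from Apoa1 at -0.06 to Tat at 0.995. Of 3 lymphocyte markers tested Nkg7 was lowest at -0.26 and Cd3g highest at 0.0018, and the 2 neutrophil markers tested were S100a9 at -0.60 and S100a8 at -0.37. Muscle and skin markers summed to at most 0.0639 FPKM in any liver.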
